A study of Mus musculus with 22 samples.

Results

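A set of 10 genes that serve the entry of proteins into the endoplasmic reticulum (ER), the shape of its sheets and the return of escaped ER proteins was examined in the distal colon of C57BL/6, Winnie and Winnie-Prolapse mice. Its members are Ckap4, the Sec61 channel genes Sec61a1, Sec61b and Sec61g, the translocon-associated protein genes Ssr1, Ssr2, Ssr3 and Ssr4, and the KDEL receptor genes Kdelr2 and Kdelr3. The 10 members were found by gene symbol among the 46078 genes of the count table, and all of them passed the filter on low counts in every comparison. The set was chosen by the measured level of Ckap4, whose mean rose in steps from C57BL/6 to Winnie to Winnie-Prolapse mice. The values of Ckap4 across the groups are therefore given as a description with no test. Only its differences between the sexes, and their change with group, were tested. Winnie mice carry a missense mutation of Muc2, which encodes the main secreted mucin of goblet cells, and develop colitis spontaneously. The 3 groups comprised 8 wild-type C57BL/6 mice aged 14 weeks (4 males and 4 females), 7 Winnie mice aged 14 weeks (3 males and 4 females) and 7 Winnie mice with prolapse aged 18 weeks, called Winnie-Prolapse (4 males and 3 females). Prolapse and age therefore cannot be told apart. The libraries were made from whole segments of distal colon, where more cells of a type and more RNA per cell cannot be told apart.

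Proteins bound for secretion or for membranes enter the ER through the Sec61 channel, a complex of an alpha, a beta and a gamma subunit that docks the translating ribosome. The translocon-associated protein (TRAP) complex, made of the products of Ssr1 (alpha), Ssr2 (beta), Ssr3 (gamma) and Ssr4 (delta), sits beside the channel and assists the insertion of some signal sequences. Ckap4 encodes a membrane protein of ER sheets that spans the lumen between the sheet membranes and binds microtubules. The KDEL receptors cycle between the Golgi and the ER and carry back soluble ER chaperones whose C terminus ends in a retrieval signal. Mucus-secreting goblet cells and antibody-secreting plasma cells are the colonic cell types known for an extended rough ER.

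The libraries held about 24817500 to 36344400 counts each (totals rounded to 6 significant digits). One library stood apart in markers of distal position: the sum of 5 such markers (Hoxb13, Hoxd13, Hoxd12, Hoxd11 and Hoxa13) was 100.2 normalised CPM (counts scaled by library total and TMM factor) in C57BL/6 replicate 7 and 649 to 956 in the other C57BL/6 libraries. Hoxa13 was not low in that library, since it ran from 67.8 to 99.9 over the C57BL/6 libraries, so the low sum came from the other 4. In Winnie-Prolapse replicate 6, genes of milk proteins took 18.9% of all counts. That library also held the highest Winnie-Prolapse value of 5 members (Sec61a1, Ssr1, Ssr2, Ssr3 and Ssr4). Squamous epithelium markers summed to 173 to 2826 normalised CPM in 5 Winnie-Prolapse libraries and to at most 4.12 in the other two. Colon epithelium markers were present in all 3 groups, with median sums of 12212, 12528 and 9636 normalised CPM in C57BL/6, Winnie and Winnie-Prolapse libraries. Calls and overlaps of the members that changed without C57BL/6 replicate 7 or Winnie-Prolapse replicate 6 are given with and without it.

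Sequence upstream of the start site is shown for Ckap4 and for the 3 members whose window held one of the motifs bound by the ER stress factors XBP1 and ATF6. RefSeq windows on GRCm38.p6 were at hand for 7 of the 10 members (Ckap4, Sec61b, Sec61g, Ssr1, Ssr3, Ssr4 and Kdelr3), each running from 250 bases before to 50 bases after the start. The motifs searched on both strands were the ER stress element (CCAAT followed after 9 bases by CCACG), its second form (ATTGG followed after 1 base by CCACG), the unfolded protein response element TGACGTGG, the shorter core GCCACGT and the cyclic AMP element TGACGTCA. Capitals mark matches, and the stretches shown end before the gene's first annotated base in either RefSeq or GENCODE.
Ckap4 (chr10:84534063-84534138, minus strand): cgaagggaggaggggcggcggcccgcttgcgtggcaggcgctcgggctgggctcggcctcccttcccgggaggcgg
Ssr1 (chr13:37994218-37994458, minus strand): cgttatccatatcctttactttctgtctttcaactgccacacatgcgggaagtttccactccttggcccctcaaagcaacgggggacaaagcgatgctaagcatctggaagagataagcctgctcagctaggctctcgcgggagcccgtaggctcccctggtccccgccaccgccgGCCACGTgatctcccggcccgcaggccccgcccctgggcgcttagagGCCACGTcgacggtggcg
Ssr3 (chr3:65392624-65392803, minus strand): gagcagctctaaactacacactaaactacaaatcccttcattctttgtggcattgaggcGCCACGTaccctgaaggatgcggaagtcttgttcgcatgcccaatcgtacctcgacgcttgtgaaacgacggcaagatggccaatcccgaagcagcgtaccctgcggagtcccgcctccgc
Kdelr3 (chr15:79516158-79516407, plus strand): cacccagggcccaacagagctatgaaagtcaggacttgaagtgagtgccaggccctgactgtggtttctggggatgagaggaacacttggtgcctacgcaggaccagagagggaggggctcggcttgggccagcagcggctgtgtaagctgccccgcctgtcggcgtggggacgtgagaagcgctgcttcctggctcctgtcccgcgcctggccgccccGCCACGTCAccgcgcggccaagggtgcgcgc
The Kdelr3 window held TGACGTGG on the minus strand from position -30, where it overlaps a GCCACGT that starts at -31, so both matches are 1 run of capitals. Ssr1 held GCCACGT at -74 and at -27, and Ssr3 held it at -191. No match to any of the 5 motifs lay in the windows of Ckap4, Sec61b, Sec61g or Ssr4, and neither form of the ER stress element was matched in any of the 7. Among all 32851 RefSeq promoter windows of this length, TGACGTGG was present in 0.676%, GCCACGT in 2.58%, the ER stress element in 0.119%, its second form in 0.0365% and TGACGTCA in 1.79%. A match describes the letters only.

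On GRCm38 with GENCODE M21, the members lie on 9 chromosomes, and the pair that shares one, Ssr3 (chr3:65379655-65392623) and Ssr2 (chr3:88575876-88588419), is far apart. Ckap4 spans chr10:84526305-84534062 and Kdelr3 chr15:79516411-79527739. Sec61a1, Sec61b and Sec61g lie at chr6:88503579-88518905, chr4:47474658-47483242 and chr11:16500530-16508484. Ssr1, Ssr4 and Kdelr2 lie at chr13:37966605-37994217, chrX:73787028-73790830 and chr5:143403838-143421901. Sec61a1, Ssr2 and Kdelr3 overlap an annotated gene on the other strand, Gm44170 by 673 bases, Gm10704 by 730 and Ddx17 by 4, so some of their reads could have been assigned elsewhere. Of 7 Ssr2 transcripts, 1 shares 24.1% of its 100-base windows with Gm10704 and Rtraf, and the others share at most 1.77%.

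**Figure D1:**
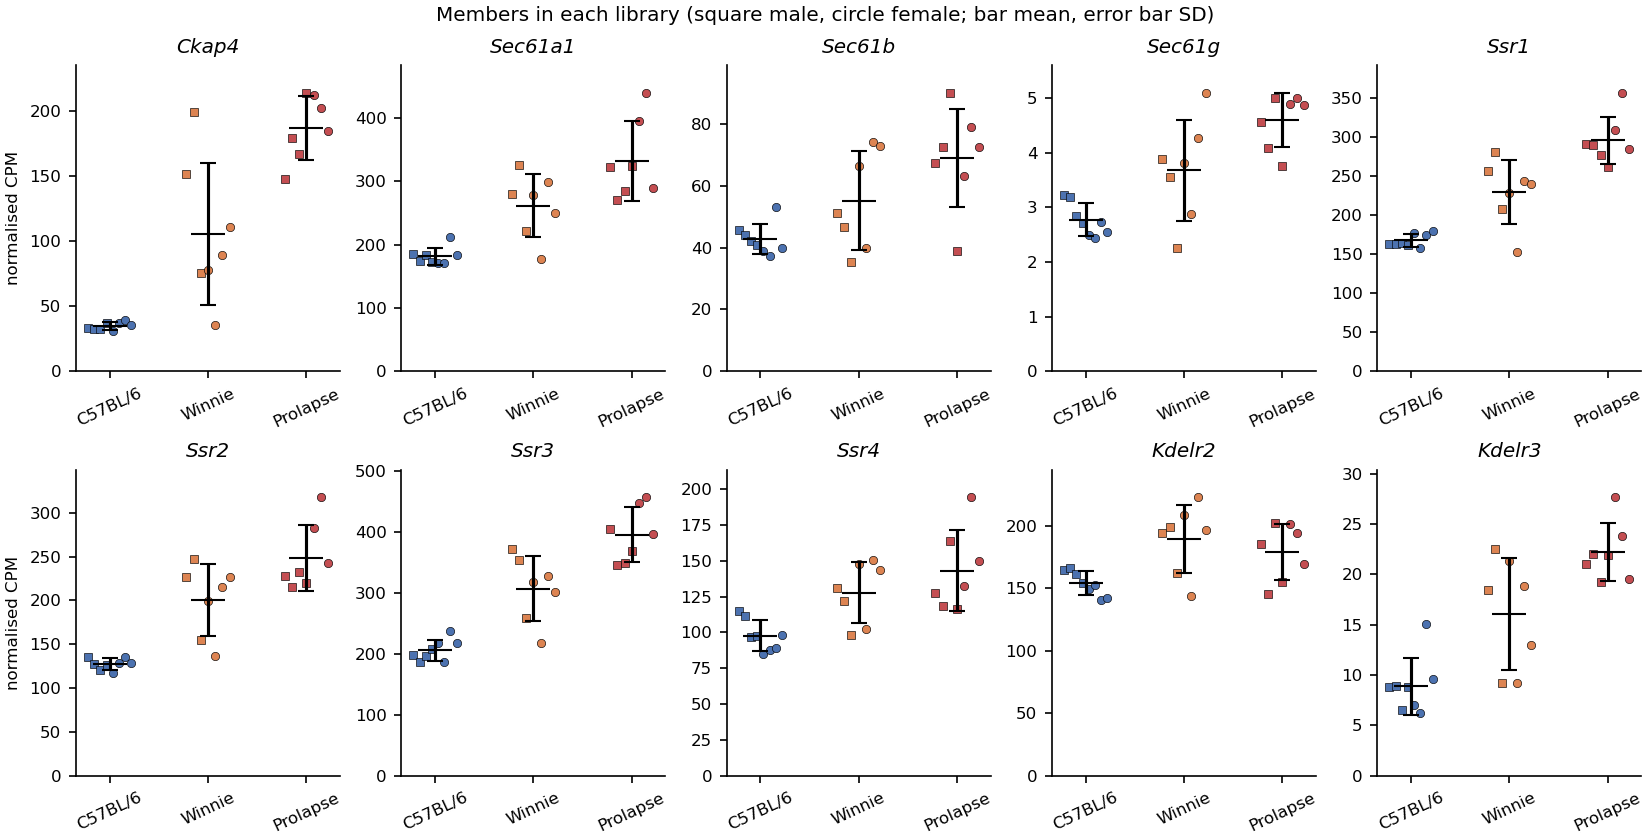
Normalised CPM (y axis, from 0) of the 10 members in each library by group (x axis). Squares are males, circles females, bars the mean and error bars the SD (n = 8, 7 and 7). Ckap4 sits between 30.7 and 39.1 in C57BL/6 and between 147 and 214 in Winnie-Prolapse libraries, with Winnie libraries spread from 35.7 to 199.

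Ckap4 had the widest spread of the members among Winnie libraries. Its level in C57BL/6 libraries had a lowest value of 30.7, a median of 34.4 and a highest value of 39.1 normalised CPM. In Winnie libraries the lowest was 35.7, the median 89.6 and the highest 199. In Winnie-Prolapse libraries the lowest was 147, the median 184 and the highest 214. Every Winnie-Prolapse library was above every C57BL/6 library, and of the 7 Winnie libraries only replicate 5 fell within the C57BL/6 range. In all, 3 Winnie-Prolapse libraries were above the highest Winnie library, so those groups overlapped. Means were 34.7 ± 2.88 (SD, n = 8), 106 ± 54.4 (n = 7) and 186 ± 24.6 (n = 7), which is 3.05-fold and 5.38-fold the C57BL/6 mean. The coefficients of variation in these groups were 8.30%, 51.5% and 13.2%. Fitted log2 fold changes (± SE) were 1.61 ± 0.25 for Winnie against C57BL/6, 2.42 ± 0.09 for Winnie-Prolapse against C57BL/6 and 0.81 ± 0.28 for Winnie-Prolapse against Winnie. With any 1 library left out they ranged from 1.38 to 1.76, from 2.37 to 2.46 and from 0.66 to 1.05.

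Sec61a1, which encodes the pore-forming alpha subunit, was upregulated in Winnie-Prolapse mice. Its level ran from 170 to 211 normalised CPM in C57BL/6 (median 179), from 178 to 326 in Winnie (median 278) and from 270 to 439 in Winnie-Prolapse libraries (median 322). Winnie-Prolapse and C57BL/6 libraries did not overlap, and Winnie replicate 5 was the only Winnie library within the C57BL/6 range. The log2 fold change was 0.86 ± 0.11 for Winnie-Prolapse against C57BL/6 (adjusted p = 1.09e-05 in edgeR's quasi-likelihood F test, with adjustment by the Benjamini-Hochberg method) and 0.53 ± 0.11 for Winnie against C57BL/6 (adjusted p = 0.00501). Without Winnie replicate 5 the latter was 0.61 ± 0.09 (adjusted p = 0.000301). The C57BL/6 maximum came from replicate 7, the library with the low sum of distal markers, and without it the log2 fold changes were 0.91 ± 0.10 and 0.56 ± 0.11.

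Sec61b and Sec61g encode the small beta and gamma subunits of the channel. Sec61b ran from 37.3 to 53.0 normalised CPM in C57BL/6 (median 41.6), from 35.3 to 74.0 in Winnie (median 51.3) and from 38.9 to 89.9 in Winnie-Prolapse libraries (median 72.4). Its groups overlapped in every comparison, with Winnie-Prolapse replicate 4 inside the C57BL/6 range. The fitted log2 fold change of Sec61b was 0.68 ± 0.14 for Winnie-Prolapse against C57BL/6 (edgeR adjusted p = 0.000672) and 0.37 ± 0.15 for Winnie against C57BL/6 (adjusted p = 0.0769, or 0.0498, 0.0269 and 0.0309 without C57BL/6 replicate 7, Winnie replicate 3 or Winnie replicate 5). The first of these lay close to the limit, since the adjusted p was between 0.00105 and 0.00218 in 13 of the 15 fits that left out a library, the exceptions being those without C57BL/6 replicate 7 or Winnie-Prolapse replicate 4.

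Sec61g was the least counted member, with 62 to 152 counts a library. It ran from 2.44 to 3.22 normalised CPM in C57BL/6 (median 2.72), from 2.25 to 5.09 in Winnie (median 3.81) and from 3.75 to 5.01 in Winnie-Prolapse libraries (median 4.87). Winnie-Prolapse and C57BL/6 libraries did not overlap, while Winnie libraries spanned both groups. For Sec61g the fitted log2 fold change was 0.72 ± 0.11 for Winnie-Prolapse against C57BL/6 (edgeR adjusted p = 0.000107) and 0.41 ± 0.16 for Winnie against C57BL/6 (adjusted p = 0.0640). Without Winnie replicate 3 or 5 the latter adjusted p was 0.0181 or 0.0346. The level of Sec61g is uncertain, because 18.2% to 74.4% of the 100-base windows of its 5 transcripts, the most in the shortest, also occur in processed copies of the gene. The copy Gm10177, an annotated transcribed processed pseudogene, held 545 to 1546 counts a library, with means of 26.0 ± 3.21, 36.2 ± 9.11 and 44.1 ± 8.00 normalised CPM in the 3 groups. With the copies Gm10177 and Gm11575 added, a choice made after seeing the data, Sec61g had means of 28.9, 40.1 and 49.1 normalised CPM. The log2 fold changes were then 0.75 ± 0.11 (adjusted p = 5.04e-05) and 0.48 ± 0.14 (adjusted p = 0.0211). Sec61b shares 9.68% to 16% of such windows with Gm10320, and with that gene added its log2 fold changes were 0.71 (adjusted p = 0.000391) and 0.40 (adjusted p = 0.0567).

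**Figure D2:**
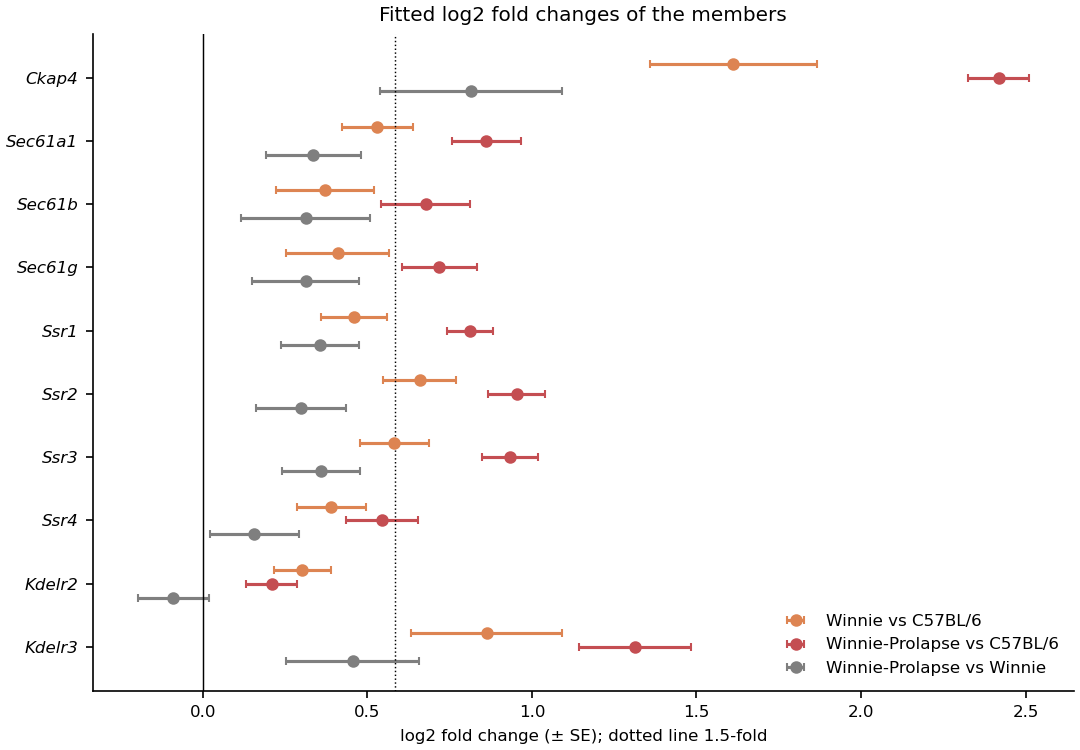
Fitted log2 fold change with SE (x axis) of the 10 members (y axis) for the 3 comparisons, with a dotted line at 1.5-fold. Points for Winnie-Prolapse against C57BL/6 lie to the right of those for Winnie against C57BL/6 for every member but Kdelr2, the only member with a value below 0 between Winnie-Prolapse and Winnie mice (-0.09).

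The TRAP genes Ssr1, Ssr2 and Ssr3 had similar fold changes. Ssr1 (alpha subunit) ran from 157 to 179 normalised CPM in C57BL/6 (median 164), from 153 to 281 in Winnie (median 240) and from 262 to 356 in Winnie-Prolapse libraries (median 290). Winnie replicate 5 was below every C57BL/6 library and the other 6 Winnie libraries were above all of them. Ssr1 had a log2 fold change of 0.81 ± 0.07 for Winnie-Prolapse against C57BL/6 (edgeR adjusted p = 5.31e-07) and 0.46 ± 0.10 for Winnie against C57BL/6 (adjusted p = 0.00677). Ssr2 (beta subunit) ran from 117 to 136 in C57BL/6 (median 128), from 136.1 to 247 in Winnie (median 215) and from 216 to 318 in Winnie-Prolapse libraries (median 232). With all libraries in, it was the only member whose Winnie libraries all lay above the C57BL/6 range, although Winnie replicate 5 (136.1) barely exceeded the highest C57BL/6 library (135.9). Ssr2 had log2 fold changes of 0.95 ± 0.09 (adjusted p = 7.28e-07) and 0.66 ± 0.11 (adjusted p = 0.00213) in the same comparisons.

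Ssr3 (gamma subunit) ran from 187 to 236 normalised CPM in C57BL/6 (median 203), from 217 to 372 in Winnie (median 318) and from 345 to 457 in Winnie-Prolapse libraries (median 397). Winnie replicate 5 alone fell within the C57BL/6 range, and all Winnie-Prolapse libraries were above it. The top of that range was C57BL/6 replicate 7 (236), and without it Winnie replicate 5 (217.3) was just above the next C57BL/6 library (217.0), so that the Winnie and C57BL/6 libraries did not overlap. Ssr3 had a log2 fold change of 0.93 ± 0.08 for Winnie-Prolapse against C57BL/6 (edgeR adjusted p = 7.07e-07) and 0.58 ± 0.10 for Winnie against C57BL/6 (adjusted p = 0.0030). Ssr4, the X-linked delta subunit gene, had a smaller log2 fold change. Its level ran from 84.8 to 115 in C57BL/6 (median 97.2), from 98.1 to 151 in Winnie (median 131) and from 116 to 194 in Winnie-Prolapse libraries (median 132). Its lowest Winnie-Prolapse library (replicate 4, 116.4) was just above the highest C57BL/6 library (replicate 1, 115.1). Ssr4 had log2 fold changes of 0.54 ± 0.11 (adjusted p = 0.000712), which is under 1.5-fold, and 0.39 ± 0.10 (adjusted p = 0.0151). Ssr4 passed 1.5-fold as well when C57BL/6 replicate 1 (0.59), Winnie-Prolapse replicate 2 (0.59) or Winnie-Prolapse replicate 4 (0.60) was left out.

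The KDEL receptor genes differed from each other. Kdelr3 ran from 6.24 to 15.04 normalised CPM in C57BL/6 (median 8.81), from 9.15 to 22.5 in Winnie (median 18.4) and from 19.3 to 27.7 in Winnie-Prolapse libraries (median 21.9). The C57BL/6 maximum was replicate 7, with the other C57BL/6 libraries at or below 9.61. Winnie-Prolapse and C57BL/6 libraries did not overlap, and 4 of 7 Winnie libraries were above the C57BL/6 range, or 5 of 7 without C57BL/6 replicate 7. The log2 fold change of Kdelr3 was 1.31 ± 0.17 for Winnie-Prolapse against C57BL/6 (edgeR adjusted p = 1.95e-05) and 0.86 ± 0.23 for Winnie against C57BL/6 (adjusted p = 0.0149). Without C57BL/6 replicate 7 these were 1.48 ± 0.12 (adjusted p = 3.58e-07) and 1.01 ± 0.21 (adjusted p = 0.00464).

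Kdelr2 was the only member whose Winnie mean (190 ± 27.4 normalised CPM, SD, n = 7) was above its Winnie-Prolapse mean (179 ± 22.7, n = 7), beside 154 ± 9.69 (n = 8) in C57BL/6 mice. It ran from 141 to 166 in C57BL/6 (median 154), from 144 to 223 in Winnie (median 196) and from 145 to 202 in Winnie-Prolapse libraries (median 186). In each diseased group 5 of 7 libraries were above the C57BL/6 range and the rest were within it. The log2 fold change of Kdelr2 was 0.30 ± 0.09 for Winnie against C57BL/6 (edgeR adjusted p = 0.0212) and 0.21 ± 0.08 for Winnie-Prolapse against C57BL/6 (adjusted p = 0.0318). The latter adjusted p was between 0.0509 and 0.116 in 8 of the 15 fits that left out a library, one of them without Winnie-Prolapse replicate 6 (0.0604). The paralog Kdelr1 had log2 fold changes of 0.19 ± 0.08 (adjusted p = 0.0780) and 0.28 ± 0.08 (adjusted p = 0.00930) in these comparisons.

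A call required an adjusted p under 0.001 and at least 1.5-fold, the limits of the study. In Winnie-Prolapse against C57BL/6 mice, 7 of the 9 members other than Ckap4 were called higher (Sec61a1, Sec61b, Sec61g, Ssr1, Ssr2, Ssr3 and Kdelr3), where 9.84% of the 17397 genes tested were called higher. With only an adjusted p under 0.05 required, all 9 were higher, against 26.5% of genes. For 7 of the 9 the libraries of these groups did not overlap (all but Sec61b and Kdelr2), against 9.16% of genes. The median log2 fold change of the 9 was 0.81, beside -0.01 over all genes tested. The members were chosen with earlier results of these data known. These counts, and those of the comparisons below, therefore describe the set and do not test it.

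In Winnie against C57BL/6 mice none of the 9 was called, where 0.0868% of 17289 genes were called higher. At an unadjusted p under 0.05 in the edgeR test all 9 were higher, against 20.5% of genes, and with only an adjusted p under 0.05 required 7 of 9 were (all but Sec61b and Sec61g), against 13.8% of genes. DESeq2 called 1 of 9 higher at the strict limit (Ssr2, adjusted p = 4.30e-06), against 3.92% of genes, and had 8 of 9 under an adjusted p of 0.05, against 14.7%. Without Winnie replicate 5, the library nearest to C57BL/6 for most members, 3 of 9 were called (Sec61a1, Ssr2 and Ssr3), against 2.5% of genes called higher in that fit. Winnie and C57BL/6 libraries did not overlap for 1 of the 9 (Ssr2), against 0.711% of genes, and without C57BL/6 replicate 7 for 2 of the 9 (Ssr2 and Ssr3), against 1.22%. Without Winnie replicate 5 it was 4 of the 9 (Sec61a1, Ssr1, Ssr2 and Ssr3), against 4.63%. The median log2 fold change of the 9 was 0.46, beside -0.01 over all genes.

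Between Winnie-Prolapse and Winnie mice none of the 9 passed either limit in the edgeR test, where 0% of 17041 genes were called and 5.01% were higher at an adjusted p under 0.05. At an unadjusted p under 0.05, 5 of 9 were higher, against 14.4% of genes. DESeq2 had 2 of 9 under an adjusted p of 0.05, against 10.1% of genes, and none at the strict limit, against 2.58%. Without Winnie replicate 2, Ssr1 (adjusted p = 0.0331) and Ssr3 (0.0462) passed the looser limit in edgeR, against 7.89% of genes higher in that fit, and Ssr3 did so without Winnie-Prolapse replicate 3 (0.0492), against 7.17%. The log2 fold changes ran from -0.09 ± 0.11 for Kdelr2 (adjusted p = 0.620, and -0.15 to -0.05 with 1 library left out) to 0.46 ± 0.20 for Kdelr3 (adjusted p = 0.158), and the smallest adjusted p was that of Ssr1 (0.0685, log2 fold change 0.36 ± 0.12). No member's libraries were free of overlap between these groups, against 0.575% of genes, although those of Ssr1 were without Winnie replicate 2, as were 2.26% of genes. The median log2 fold change of the 9 was 0.31, beside 0.01 over all genes. The comparisons against C57BL/6 share their control libraries, so their values stand side by side and are not independent of each other.

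Levels were compared between members after division by length, and most places in that order depended on the length used. Divided by all annotated exons of the gene, Kdelr2 was highest in C57BL/6 libraries (84.2 ± 5.30 normalised CPM per kilobase, SD, n = 8), followed by Ssr2 (68.4 ± 3.42). Divided by the longest coding transcript, a choice made after seeing the data, Ssr4 (122 ± 13.7) and Ssr2 (107 ± 5.37) came before Kdelr2, and with the shortest one Ssr1 (320.3 ± 15.4) was highest. With each of these lengths the last 3 places in C57BL/6 libraries were those of Ckap4 (11.2 ± 0.93 by all exons), Kdelr3 (6.27 ± 1.98) and Sec61g (1.13 ± 0.12). By the shortest transcript, Kdelr3 and Sec61g (6.16 ± 0.67) differed by less than their SD. In Winnie-Prolapse libraries Ckap4 had 60.3 ± 7.95 (n = 7) by all exons, in place 4 of 10 and within 1 SD of Sec61b (54.3 ± 12.5), but it was in place 7 or 8 by the longest or shortest coding transcript. Kdelr3 and Sec61g were in places 9 and 10 in all 3 groups with each length. The low place of Sec61g is subject to its copies.

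**Figure D3:**
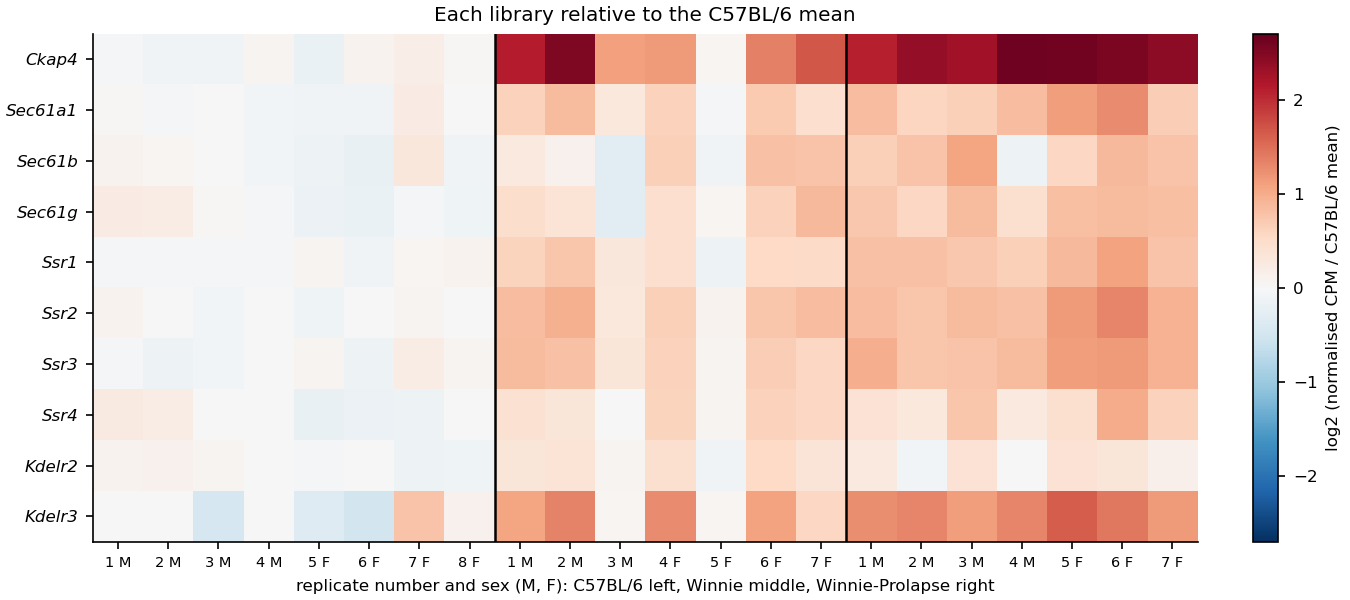
Each library (columns, by replicate number and sex) relative to the C57BL/6 mean of each member (rows), as the log2 ratio of normalised CPM. Winnie replicate 5 is pale across the members and replicate 3 is paler than the other 5 Winnie libraries, although its Ckap4 level of 75.1 is above the C57BL/6 mean of 34.7. Winnie replicate 2 has a Ckap4 level of 199, within the Winnie-Prolapse range.

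Among Winnie libraries, replicates 3 and 5 were low across the members. They held the 2 lowest values among Winnie libraries for all 10 members: replicate 5 was lowest for Ckap4, Sec61a1, Ssr1, Ssr2, Ssr3 and Kdelr2, and replicate 3 for Sec61b, Sec61g, Ssr4 and Kdelr3. Replicate 2 was highest for Ckap4, Sec61a1, Ssr1, Ssr2 and Kdelr3, but for Sec61b (46.6), Sec61g (3.56) and Ssr4 (121.6) it was below all Winnie libraries except replicates 3 and 5. Replicate 6 was highest for Ssr4, Kdelr2 and Sec61b. The same libraries 3 and 5 had the lowest Winnie sums of 10 plasma cell markers, 1888 and 1877 normalised CPM, beside 3093 to 7129 in the other 5. They also had the lowest sums of leukocyte markers (74.5 and 77.6, beside 91.2 to 159) and the highest sums of smooth muscle markers (6882 and 6607, beside 2181 to 5867). The 10 goblet cell markers summed to 25335 and 24578 in Winnie replicates 4 and 6 and to 6665 to 10777 in the other 5. The part of these cell types in the members' levels was not tested.

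Across the 22 libraries, after subtraction of each group's mean from log2 CPM, the members fell on a scale of likeness to Ckap4. Pearson's r with Ckap4 was 0.82 for Ssr1, 0.79 for Ssr2, 0.74 for Ssr3, 0.69 for Sec61a1 and 0.59 for Kdelr3. It was 0.41 for Kdelr2, 0.32 for Sec61g, 0.22 for Ssr4 and 0.11 for Sec61b. Pairs among Ckap4, Sec61a1, Ssr1, Ssr2, Ssr3 and Kdelr3 had r from 0.59 to 0.88, pairs among Sec61b, Sec61g and Ssr4 from 0.74 to 0.80, and pairs between these sets from 0.11 to 0.69. The sets were drawn after seeing the values. These coefficients are a description of 22 libraries that share their normalisation, and the spread of Ckap4 within groups was widest among Winnie libraries.

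**Figure D4:**
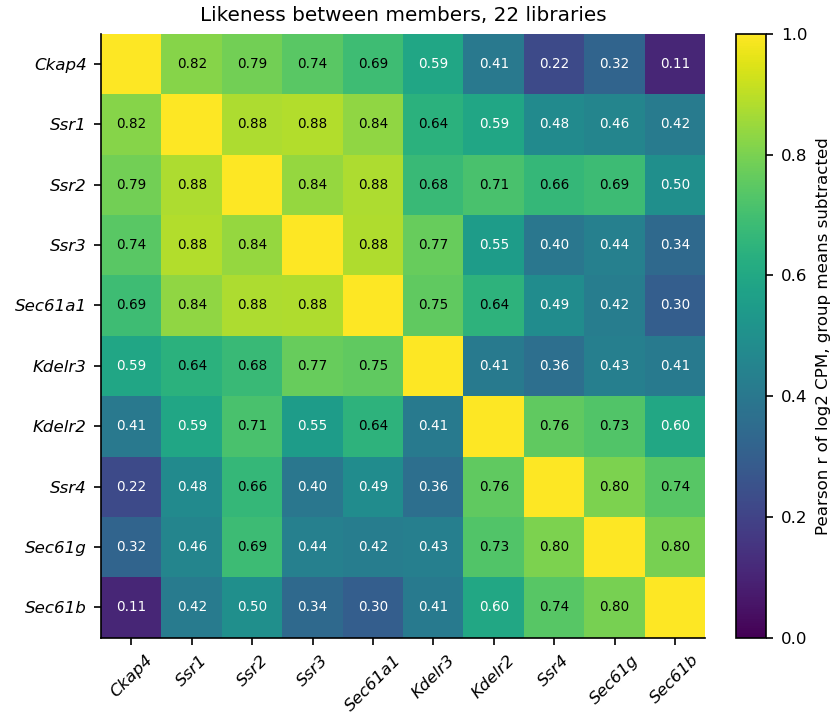
Pearson's r of log2 CPM between members over 22 libraries, after subtraction of group means (both axes list the members; colour and printed value give r). The highest values lie among Ckap4, the TRAP genes Ssr1 to Ssr3 and Sec61a1, and the lowest, 0.11, between Ckap4 and Sec61b.

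The genes whose pattern was most like that of Ckap4 were taken from 13600 genes by Pearson's r, without and with subtraction of group means. Without it, r includes the group differences for which Ckap4 was chosen. Rising group means among the first 8 over all libraries therefore follow from the ranking. Over all 22 libraries the first 8 were Serpina3f (r = 0.98), Mlkl (0.98), Slpi (0.98), Elovl1 (0.97), H13 (0.97), Nsf (0.97), Cxcl9 (0.97) and Slc6a9 (0.97). After subtraction of group means they were Mlkl (0.90), Nsf (0.89), Slpi (0.89), Gorasp2 (0.88), Serpina3f (0.87), Ywhae (0.86), Ehd4 (0.86) and Eif1a (0.86). Slpi, a secreted protease inhibitor, had means of 10.7, 135 and 284 normalised CPM in C57BL/6, Winnie and Winnie-Prolapse libraries. Mlkl, the effector of necroptosis, had means of 14.95, 41.4 and 63.0, and Nsf, an ATPase of vesicle fusion, 57.1, 90.9 and 121. Cxcl9, an interferon-induced chemokine, had means of 0.637, 39.8 and 133. H13, which encodes signal peptide peptidase of the ER membrane, had means of 121, 174 and 237. The best placed member was Ssr1, at rank 18 over all libraries and rank 36 after subtraction of group means.

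The levels were compared between the sexes with group in the model, a contrast that played no part in the choice of genes. No member passed an adjusted p of 0.05, where 0.0788% of 17769 genes did (edgeR quasi-likelihood test). The log2 difference of males from females ran from -0.18 ± 0.13 for Sec61b (adjusted p = 0.966) to 0.19 ± 0.18 for Ckap4 (adjusted p = 0.966). For the difference between sexes in the Winnie effect no member passed either, as 0% of genes did. Ckap4 had the largest such value among the members, 0.94 ± 0.39 higher in males (adjusted p = 0.313), with means of 142 normalised CPM in 3 Winnie males and 78.4 in 4 Winnie females. Sec61b (-0.55 ± 0.31), Sec61g (-0.54 ± 0.27) and Ssr4 (-0.44 ± 0.21) pointed the other way, with adjusted p of 0.443, 0.390 and 0.371. For the Winnie-Prolapse effect the values ran from -0.50 ± 0.21 for Ssr4 to 0.03 ± 0.42 for Kdelr3.

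Other genes of ER entry, folding and transport were measured in 9 lists. In Winnie-Prolapse against C57BL/6 mice 23 of the 106 list genes tested were called higher (21.7%) and 2 lower, with a median log2 fold change of 0.35. Over all genes tested, 9.84% were called higher and 8.47% lower. Of the 23, 8 were in the list of soluble chaperones, which was written by hand. In Winnie against C57BL/6 mice none was called in the edgeR test, where 0.0868% of all genes were called higher. At an adjusted p under 0.05, 47 were higher (44.3%) and 4 lower, beside 13.8% of all genes higher and 11.9% lower. Between Winnie-Prolapse and Winnie mice none was called. At the looser limit 2 were higher (1.89%) and 1 lower, beside 5.01% of all genes higher and 3.73% lower. Where a list had 5 or fewer calls, the genes named for them were picked after their values were seen.

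The soluble chaperones and folding enzymes of the ER lumen, most of which carry the retrieval signal that KDEL receptors bind, had the largest share of calls among the 9 lists. In Winnie-Prolapse against C57BL/6 mice 8 of 9 were called higher, all but Erp44 (0.36 ± 0.07), against 9.84% of all genes. Hspa5, the main luminal chaperone, had means of 285, 525 and 757 normalised CPM in the 3 groups and a log2 fold change of 1.40 ± 0.17 for Winnie-Prolapse against C57BL/6 (edgeR adjusted p = 9.17e-06). Calr, a lectin chaperone, had a log2 fold change of 1.14 ± 0.11 (adjusted p = 1.23e-06) and Hsp90b1 one of 1.08 ± 0.15 (adjusted p = 4.49e-05). P4hb and Pdia3, which catalyse disulfide exchange, had 0.95 ± 0.10 and 0.89 ± 0.09. In Winnie against C57BL/6 mice none of the 9 was called and all 9 were higher at an adjusted p under 0.05, against 13.8% of all genes. Their median log2 fold change was 0.64.

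In Winnie-Prolapse against C57BL/6 mice 9.84% of all genes were called higher. Of the partners of the channel and the signal peptidase, 4 of 10 were called higher. These were Tram1 (0.75 ± 0.08, adjusted p = 3.89e-06) and Tram2 (1.21 ± 0.20), which assist chain insertion, and the signal peptidase subunits Spcs2 (0.68 ± 0.10) and Spcs3 (0.67 ± 0.07). Sec61a2, the paralog of Sec61a1, had a log2 fold change of 0.19 ± 0.08 (adjusted p = 0.0553) and Sec62, used for post-translational entry, -0.19 ± 0.08 (adjusted p = 0.0557). Of the oligosaccharyltransferase, which adds N-glycans to entering chains, 4 of 12 were called higher: Rpn1 (0.82 ± 0.11), Rpn2 (0.83 ± 0.09), Stt3a (0.76 ± 0.12) and Ostc (0.79 ± 0.11). Ddost, another subunit, had 0.51 ± 0.11 (adjusted p = 0.00125), and Stt3b, the catalytic subunit of the other form of the enzyme, had 0.22 ± 0.08 (adjusted p = 0.0245). Of the signal recognition particle and its receptor, which bring ribosomes to the channel, 1 of 8 tested was called higher, the receptor subunit Srprb (0.59 ± 0.09). That count is close to the share over all genes. The other receptor subunit gene, Srpr, had 0.54 ± 0.11 (adjusted p = 0.000632), under 1.5-fold, and the particle subunit genes Srp72 and Srp68 had 0.35 ± 0.07 and 0.19 ± 0.06. None of the 16 tested genes of the ER membrane complex and of tail-anchored insertion was called, with a median log2 fold change of 0.18. The 3 most abundant of them were Emc10 (0.20 ± 0.08, adjusted p = 0.0568), a subunit of that complex, and Sgta (0.21 ± 0.08, adjusted p = 0.0502) and Bag6 (-0.03 ± 0.06, adjusted p = 0.689), which hand over tail-anchored proteins.

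The coats, ER shape genes and regulators were counted in the same way. Over all genes in Winnie-Prolapse against C57BL/6 mice, 9.84% were called higher and 8.47% lower, and 26.5% were higher at an adjusted p under 0.05. The 1 of 12 ER shape genes called higher is close to the first of these shares. None of the 12 genes of the COPI list, which holds the coat that carries KDEL receptors back to the ER, was called in Winnie-Prolapse against C57BL/6 mice, although 10 were higher at an adjusted p under 0.05, among them Arcn1 (0.51 ± 0.08, adjusted p = 5.90e-05), Arf1 (0.49 ± 0.09) and Copa (0.38 ± 0.07). Of the 16 genes of the COPII coat, which moves cargo out of the ER, 3 were called higher: Sec23b (1.17 ± 0.09, adjusted p = 1.94e-07), Sec24d (1.01 ± 0.15) and Tfg (0.59 ± 0.09). The 3 most abundant COPII genes were not called: Sec16a, a scaffold of ER exit sites, had 0.58 ± 0.12 (adjusted p = 0.000801, under 1.5-fold), Sec31a of the outer coat 0.26 ± 0.07 (adjusted p = 0.00503) and the cargo adaptor Sec24c 0.21 ± 0.07 (adjusted p = 0.0225). Of 12 ER shape genes, 1 was called higher (Lnpk, 0.66 ± 0.12) and 2 lower (Reep6, -1.49 ± 0.21, and Atl1, -1.45 ± 0.22). Rrbp1, another protein of ribosome-bearing ER sheets, had a log2 fold change of 0.57 ± 0.16 (adjusted p = 0.00683) and Rtn3, a protein of ER tubules, 0.11 ± 0.09 (adjusted p = 0.315), while Arl6ip1, another membrane-shaping protein, had 0.19 ± 0.11 (adjusted p = 0.165). Of 11 regulators of ER gene transcription, 2 were called higher: Xbp1 (0.93 ± 0.12, adjusted p = 1.23e-05) and Creb3 (0.69 ± 0.10). Creb3l1, an ER-bound transcription factor, had 0.23 ± 0.15 (adjusted p = 0.209) and Mbtps1, a protease that releases such factors, -0.14 ± 0.07 (adjusted p = 0.110).

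**Figure D5:**
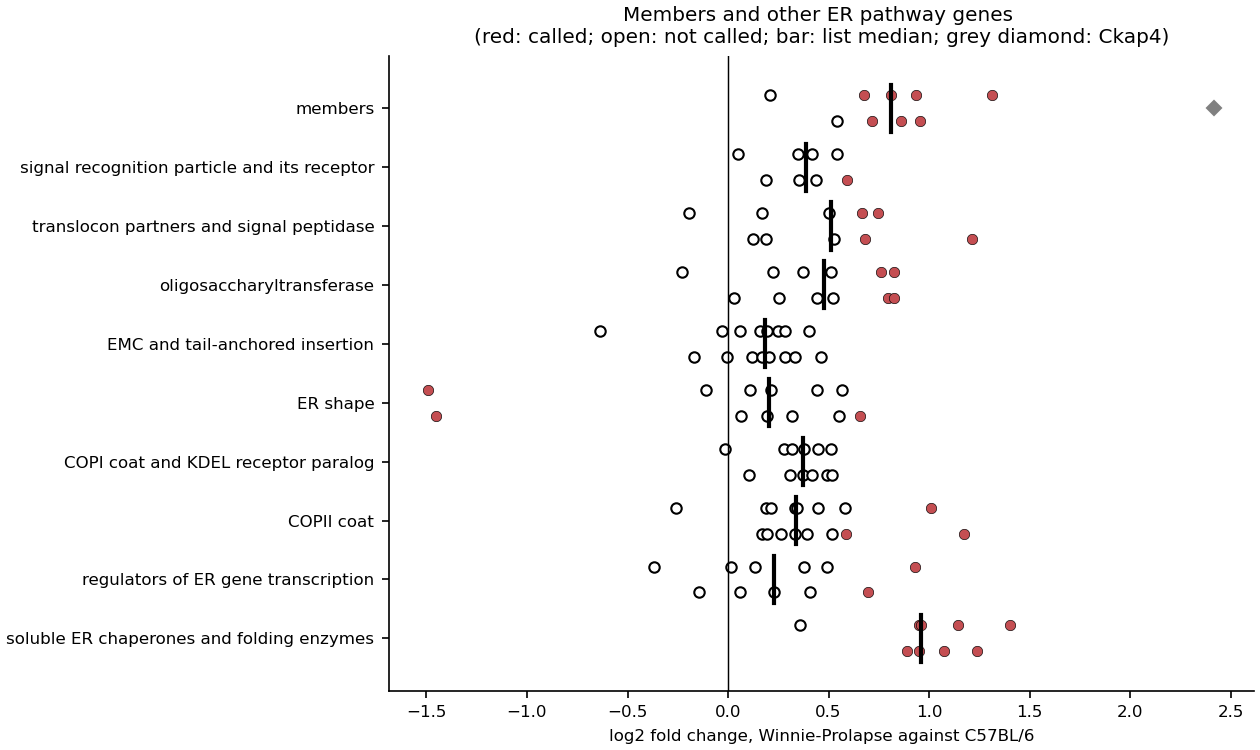
Log2 fold change of Winnie-Prolapse against C57BL/6 (x axis) for the 9 members other than Ckap4 and for the genes of 9 related lists (rows). Red points were called, open points were not, bars are list medians and the grey diamond is Ckap4, which was not tested; the chaperone list has the highest median of the related lists, 0.96, next to 0.81 for the 9 members.

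Markers of several cell types moved with the groups. Plasma cell markers summed to 654 to 1829 normalised CPM in C57BL/6, 1877 to 7129 in Winnie and 4141 to 8973 in Winnie-Prolapse libraries, and 8 of 10 were called higher in Winnie-Prolapse against C57BL/6 mice. Goblet cell markers summed to 10925 to 15323, 6665 to 25335 and 3857 to 13999, with 2 of 10 called higher and 1 lower. At an adjusted p under 0.05, 2 of the goblet cell markers were higher and 5 lower, with a median log2 fold change of -0.76. Smooth muscle markers summed to 6421 to 11634, 2181 to 6882 and 1209 to 3629, with 6 of 6 called lower. Fibroblast markers summed to 793 to 1040, 489 to 1537 and 663 to 2029, with none of 7 called. At an adjusted p under 0.05, 5 of the 7 were higher, against 26.5% of all genes. Leukocyte markers summed to 26.4 to 146, 74.5 to 159 and 81.6 to 272, with 4 of 6 called higher. Over all genes tested in Winnie-Prolapse against C57BL/6 mice, 9.84% were called higher and 8.47% lower. No marker of these lists was at 0 in all libraries of a group. The part of these cell types in the changes of the members was not tested.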

How the data were processed

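Poly(A) RNA of 22 distal colon segments was sequenced from stranded libraries. Per the labels and the methods of the study, the authors aligned reads to GRCm38 with STAR, run through RNAsik, and assigned them to genes with featureCounts, and the deposited values are raw counts per gene. The annotation release, the strand setting and the handling of reads shared between copies are not given in the sources used here. Counts were tested as deposited with edgeR 4.0.16 in R 4.3.3 (TMM, default low-count filter, quasi-likelihood F test, Benjamini-Hochberg adjustment over all genes tested), each comparison on its own 2 groups. Calls used the limits of the study (adjusted p under 0.001, 1.5-fold), with an adjusted p under 0.05 beside them. Levels are CPM normalised with TMM factors over all 22 libraries. Exonic lengths and locations are from GENCODE M21 on GRCm38, promoter windows from RefSeq GRCm38.p6.

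Members and lists were chosen with earlier results of these data known. Named genes are all members, the 3 highest by mean CPM of each list, Sec61a2, Kdelr1, Rrbp1, Xbp1, the 5 highest soluble chaperones, and the 8 genes most like Ckap4 by each measure. Other list genes are named where a list had 5 or fewer calls, and Erp44 as the uncalled chaperone, all chosen after their values were seen. The chaperones were listed by hand, since no protein sequences were used here to find the retrieval signal. List genes with no row of their own in the table were left out (Camlg, Srp54c), and 1 further marker of distal position is not reported here. Per the labels, a segment was taken from each mouse and each library is a sample of its own. The quasi-likelihood script was tested on simulated data. Alternatives used DESeq2 1.42.0 and limma 3.58.1.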

Additional observations from a re-analysis of the deposited data

Results flagged for a closer look

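Each member and each marker sum in each group of 7 or 8 libraries gave 57 sets of values. In 6 sets a library was set apart from the others by Dixon's ratio of gap to range. For independent, normally distributed values this rule sets apart about 1 in 20. The members vary together and some marker sums are skewed, so that rate need not hold here. C57BL/6 replicate 7 stood apart in 4 of the 6 sets. It was high for Sec61a1 (211 normalised CPM, with the nearest C57BL/6 library at 184) and for Kdelr3 (15.04, nearest 9.61). It was also low for the sum of distal position markers (100.2, nearest 649) and high for the sum of smooth muscle markers (11634, nearest 8704). Winnie replicate 2, the Winnie library with the highest Ckap4 level, was high for squamous epithelium markers (50.1, nearest 3.36). Winnie-Prolapse replicate 6 was high for milk protein markers (230627, nearest 57.9).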

How the results depend on the processing

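The count of called members, out of 9 without Ckap4, was 0 for Winnie against C57BL/6. It was 1 with DESeq2, 1 with all 3 groups in one fit, 7 with only an adjusted p under 0.05 required, and 0 to 3 with 1 library left out, where the 3 came without Winnie replicate 5. For Winnie-Prolapse against C57BL/6 it was 7, and 6 to 8 with 1 library left out, but 1 in males alone and 0 in females alone. Fewer libraries enter those 2 fits, and the log2 fold changes kept their direction in both. The shares of all genes called in those 2 fits and in the fit of all 3 groups are not given here. The changed counts are therefore not read as particular to the members. Between Winnie-Prolapse and Winnie mice it was 0 in all 14 fits that left out a library. The count for sex and for its interaction with group was 0 in all 22. The count of members whose libraries did not overlap, examined after seeing the data, was 1 for Winnie against C57BL/6 and 1 to 4 with 1 library left out (2 without C57BL/6 replicate 7, 4 without Winnie replicate 5). It was 7 and 7 to 8 for Winnie-Prolapse against C57BL/6, and 0 and 0 to 1 (1 without Winnie replicate 2) for Winnie-Prolapse against Winnie. Over all genes, edgeR called 15 higher in Winnie against C57BL/6 mice and DESeq2 780, while edgeR without Winnie replicate 5 called 436. Between Winnie-Prolapse and Winnie mice edgeR called 0 higher and DESeq2 503. Scaling without TMM, limma-voom, the newer quasi-likelihood fit, other filters, sex as a covariate and the removal of milk protein genes moved no count of called members by over 1.5 times. Of the members' log2 fold changes, 16 lost their call under another setting, 13 of them in the fits on 1 sex, and 2 gained one (Ssr2, Winnie against C57BL/6, with DESeq2 and with all 3 groups in one fit). With 1 library left out, 13 lost it, all of them Sec61b in Winnie-Prolapse against C57BL/6 mice, and 6 gained one (Ssr4 in 3 fits, and Sec61a1, Ssr2 and Ssr3 in 1 each). Sec61b also lost its call in Winnie-Prolapse against C57BL/6 mice with limma-voom (adjusted p = 0.00136), with sex as a covariate (0.001005) and with all 3 groups in one fit (0.00132). No log2 fold change of a member reversed its sign in any of these fits. Sec61g had the fewest counts, 62 to 152 a library, or 614 to 1696 with its copies added, and whether depth or shared reads limits it was not tested. No paired analysis was possible because the replicate numbers were given in accession order and pair no mice.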
